A study of Mus musculus with 2 samples.

Results

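Kinesins and dyneins are the motor proteins that move along microtubules. The members described here are the 69 protein-coding genes whose symbols name a kinesin (Kif, Kifc), a kinesin light chain (Klc), a cytoplasmic dynein subunit (Dync, Dynl) or a dynactin subunit (Dctn), of 21901 protein-coding genes measured. Membership was set by symbol alone and used no measured value. The members, their classes and the gene lists used below were, however, chosen with earlier results of these data known. They comprised 16 transport motors, 4 kinesin-1 light chains, 15 further dynein subunits, 6 dynactin subunits, 9 kinesins of cilia or of microtubule ends, 6 other genes and 13 mitotic motors, classed by textbook role. The symbol rule also took in Kif1bp, which encodes a kinesin-binding protein without a motor domain.

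The libraries were made from total RNA of left cerebral cortex, taken at 25 days from male B6CASTF1/J mice, the F1 hybrids of C57BL/6J and CAST/EiJ. There was 1 group with 2 biological replicates and 300 ng of RNA per library, and the labels name no treatment and no mutant allele. The donor entry of the samples is the same, so that they came from separate animals is an assumption, and each SD (n = 2) covers only the spread between these samples. With 1 group there was no contrast between conditions and no test was run, so all values are descriptions of these libraries.

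Replicate 1 had 30503944 expected counts in all and replicate 2 had 33263801, and members held 1.13% and 1.12% of the counts assigned to genes. TPM is a level scaled for transcript length and library total, so levels of different genes can be set side by side. Every one of 10 listed neuron markers reached 1 TPM in each animal (median 450 TPM), as did all 12 mature oligodendrocyte markers (median 48.4 TPM), all 8 oligodendrocyte precursor markers (15.2 TPM), all 8 astrocyte (72.2 TPM), all 8 microglial (22.1 TPM) and all 8 endothelial markers (7.14 TPM). The cortex was dissected as a whole, so how many cells express a gene and how much RNA each cell holds cannot be told apart. Reads were quantified on the mm10 reference, and reads from the CAST/EiJ copies may align less well where the sequences differ, which was not tested.

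Most kinesins walk toward the plus ends of microtubules, which in axons point away from the cell body, and cytoplasmic dynein-1, with its activator dynactin, walks toward the minus ends. In neurons these motors carry vesicles, mitochondria, RNA granules and cytoskeletal proteins between the cell body and the synapses. A separate group of kinesins builds the mitotic spindle, moves chromosomes and completes cytokinesis, and most neurons of the cortex have left the cell cycle by this age.

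The transport motors were abundant and the mitotic motors were near the limit of detection. All 16 transport motors and 4 of 13 mitotic motors reached 1 TPM in both animals, and over all members 52 of 69 (75.4%) did, beside 58.4% of all protein-coding genes. The mitotic count is not firm. Of those 4 genes, Kif23 had 13.3% and 24.0% of its TPM on protein-coding transcripts in replicates 1 and 2. For Kif22 these shares were 67.1% and 31.2%. By the second deposited quantification Kif15 and Kif2c also passed 1 TPM in both animals. The median level was 57.9 ± 1.91 TPM for transport motors and 0.475 ± 0.0141 TPM for mitotic motors (median of the 2-animal means, SD of the animals' own medians, n = 2), a 122-fold ratio and 6.93 on the log2 scale. In replicate 1 the medians were 59.2 TPM for transport and 0.41 TPM for mitotic motors, a 144-fold ratio. In replicate 2 they were 56.5 and 0.43 TPM, a 131-fold ratio. Both animals' mitotic medians lay below 0.475 TPM and both ratios above 122-fold, so the mitotic SD is not a spread around 0.475 TPM. In the gene table the ranges of the classes did not meet. The lowest transport motor, Kif16b, averaged 4.81 TPM and the highest mitotic motor, Kif22, averaged 2.36 TPM. This gap depends on the classes, which were chosen with earlier results of these data known. Kif2a, a microtubule depolymerase like the mitotic Kif2c, averaged 49.7 TPM and was classed with the kinesins of microtubule ends. The median of all 69 members was 13.7 TPM, beside 3.56 TPM over all protein-coding genes.

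**Figure D1:**
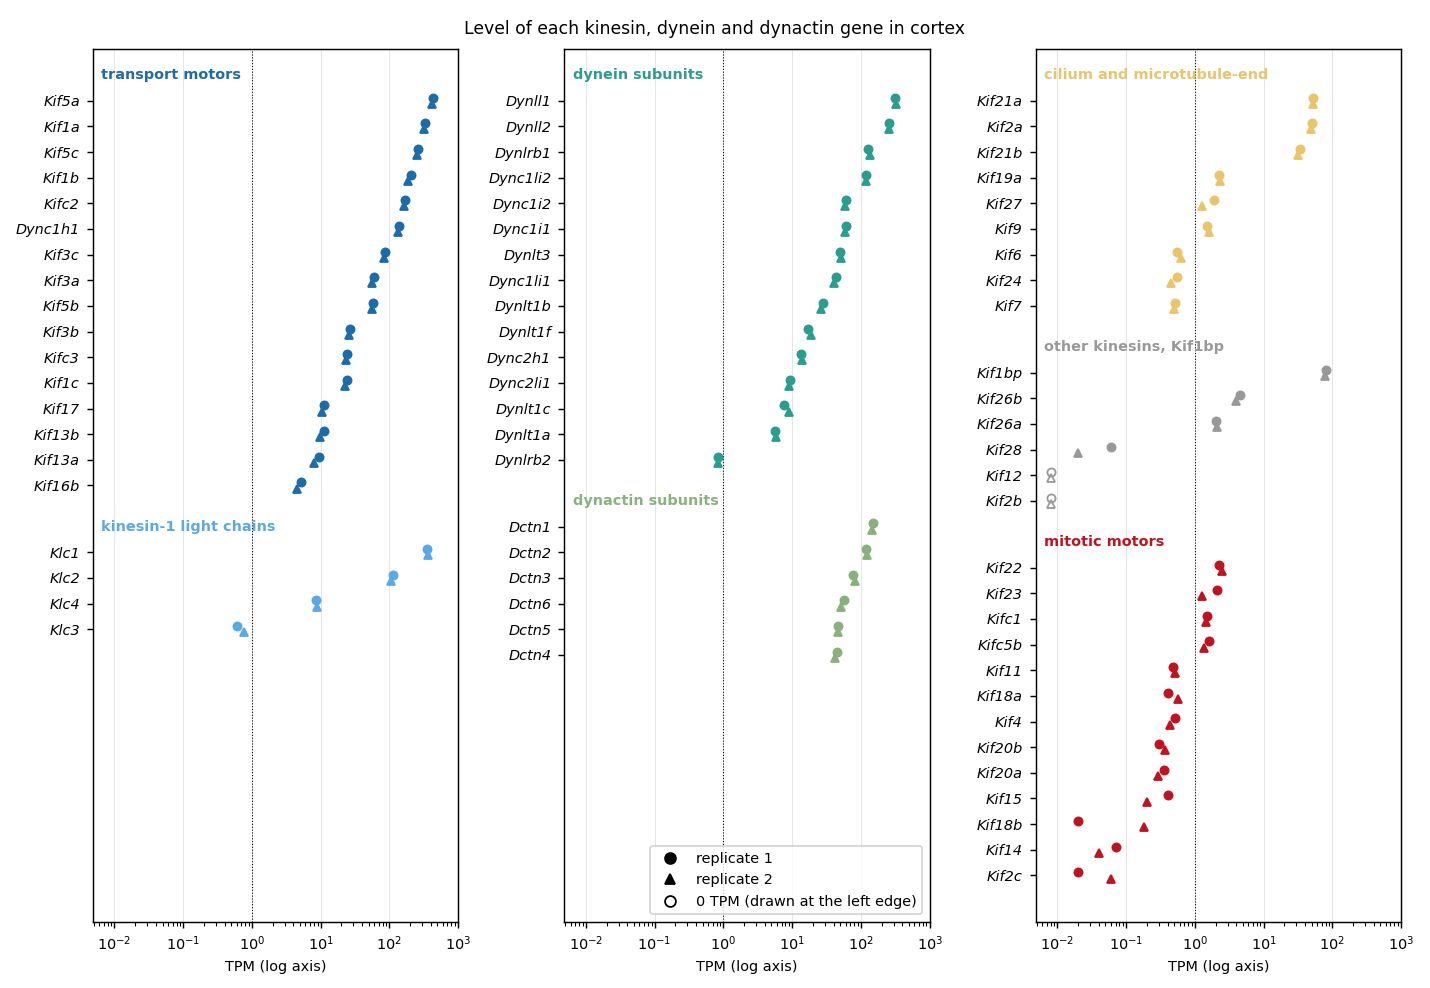
TPM on a log axis for each of the 69 genes, grouped by role, with circles for replicate 1 and triangles for replicate 2; the dotted line marks 1 TPM and open symbols mark 0 TPM. All 16 transport motors lie right of the line, and 9 of the 13 mitotic motors lie left of it in both animals.

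RNA for transport was concentrated in few genes. Summed TPM of the transport motors was 1855 in replicate 1 and 1773 in replicate 2, or 43.8% of the summed TPM of all members. The mitotic motors together came to 9.99 TPM in replicate 1 and 9.23 in replicate 2, which is 0.232% of the members' sum. The first 7 members in order of level, Kif5a, Klc1, Kif1a, Dynll1, Kif5c, Dynll2 and Kif1b, held 51.6% of it. The order among them depended on the quantification: in the second deposited one, from a transcript table summed by gene, Dynll1 was highest at 695 TPM, before Kif5a at 633, Kif1a at 623 and Klc1 at 480 TPM (means of both animals), and Kifc2 stood above Kif1b.

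Kinesin-1, the conventional kinesin, is a pair of motor-bearing heavy chains and a pair of cargo-binding light chains. Kif5a, a heavy chain known for neuronal expression and mutated in hereditary spastic paraplegia, was the highest member of the gene table at 429 TPM in replicate 1 and 416 in replicate 2 (ENSMUSG00000074657.5, chromosome 10, 127225696 to 127263348, minus strand). Kif5c, the other neuron-enriched heavy chain, stood at 262.8 and 252.0 TPM in replicates 1 and 2. The ubiquitous heavy chain Kif5b stood at 58.4 and 56.5 TPM. The animals' values were close for each gene, and the order of the 3 heavy chains was the same in both.

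Kif5a made up 57.3 ± 0.168% of heavy chain TPM, Kif5c 34.9 ± 0.175% and Kif5b 7.79 ± 0.00758% (SD, n = 2). Its dominant transcript, Kif5a-201, held 99.1% of the gene's TPM. None of its 31-base words occurred in a transcript of another gene, so reads of the paralogs could be separated. In the second deposited quantification Kif5a made up 53.8% and Kif5b 11.98%. The order of the heavy chains held there too, while Kif5b took a larger share. Protein-coding transcripts held 95.1% of Kif5b TPM, or 65.9% by the second quantification. The larger share of Kif5b is therefore not firm for coding RNA.

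Among the light chains, Klc1 stood at 354 TPM in replicate 1 and 359 in replicate 2, and Klc2 at 113.9 and 107.2 TPM. Klc4 stood at 8.65 and 8.92 TPM, and Klc3, a light chain best known from testis, at 0.61 and 0.77 TPM. Klc1 therefore held 74.8 ± 0.868% of light chain TPM. Light chains summed to 0.647 ± 0.0142 of the heavy chain TPM, that is, less light than heavy chain RNA in both animals, at 0.637 in replicate 1 and 0.657 in replicate 2.

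Kinesin-2 forms a trimer of Kif3a with Kif3b or Kif3c as motor chains, or a homodimer of Kif17, and serves both ciliary and axonal or dendritic transport. Kif3c was the highest of these at 87.4 TPM in replicate 1 and 83.6 in replicate 2. Kif3a followed at 60.1 and 56.6 TPM, and Kif3b at 26.7 and 25.9 TPM. Kif3c exceeded Kif3b 3.25 ± 0.031-fold, and the partners Kif3b and Kif3c together came to 1.92 ± 0.0241 times Kif3a. Kifap3, the accessory subunit of the heterotrimer and no member by symbol, stood at 1.60 ± 0.0642 times Kif3a. By the second quantification Kif3c exceeded Kif3b 3.63-fold, Kif3b and Kif3c came to 1.38 times Kif3a, and Kifap3 to 1.15 times. The ratios to Kif3a therefore depend on the quantification by more than their SDs. Kif17, a dendritic carrier of NMDA receptor subunits, stood at 11.1 and 10.4 TPM.

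Kinesin-3 motors are fast, processive carriers of vesicles. Kif1a, which carries synaptic vesicle precursors and dense-core vesicles, stood at 331 TPM in replicate 1 and 316 in replicate 2 (ENSMUSG00000014602.15, chromosome 1, 93015464 to 93101951, minus strand). Kif1b stood at 207.8 and 188.6 TPM, so Kif1a exceeded it 1.63 ± 0.0592-fold. The remaining members were lower. Kif1c stood at 23.9 and 22.4 TPM, and the endosomal motor Kif16b at 5.16 and 4.46 TPM. Kif13b stood at 11.36 and 9.63 TPM, and Kif13a at 9.36 and 7.92 TPM.

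The remaining transport motors run toward minus ends. Kifc2, a kinesin described in axons and dendrites, was the fifth of the 16 in the gene table at 170 TPM in replicate 1 and 164 in replicate 2, above the dynein heavy chain. Kifc3 stood at 23.9 and 23.2 TPM. Dync1h1, the single motor chain of dynein-1, stood at 137.2 and 134.8 TPM. Kinesin-1 heavy chains together exceeded it 5.42 ± 0.0654-fold.

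Subunits of dynein-1 were close in level to its heavy chain. The intermediate chains, which bind dynactin, were near equal, with Dync1i1 at 59.7 TPM in replicate 1 and 58.5 in replicate 2 and Dync1i2 at 61.4 and 58.3 TPM. Their sum was 0.875 ± 0.0113 of Dync1h1. The light intermediate chains, which bind cargo adaptors, summed to 1.17 ± 0.000785 of it, with Dync1li2 at 118 and 117 TPM and Dync1li1 at 42.8 and 40.9 TPM. By the second quantification this ratio was 1.08. Of the Dync1li2 TPM, 24.0% lay on Dync1li2-208, a noncoding transcript of 144 bases with 25.0 and 29.1 counts in replicates 1 and 2. The second quantification gave that transcript 0, so the ratio is less firm than its SD.

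Light chains of dynein, which also serve other complexes, reached the highest levels of the subunits. Dynll1 stood at 315 TPM in replicate 1 and 328 in replicate 2, Dynll2 at 260.8 and 253.2 TPM, and Dynlrb1 at 126.9 and 136.6 TPM. Protein-coding transcripts held 41.2% of Dynll1 TPM, or 57.9% by the second quantification, against 99.4% of Dynll2 TPM by each. The order of Dynll1 and Dynll2 is therefore not firm for coding RNA. Dynlt3 stood at 50.3 and 51.5 TPM. Its relatives Dynlt1a, Dynlt1b, Dynlt1c and Dynlt1f averaged 5.71, 26.8, 8.30 and 17.8 TPM, but 67.6% to 96.0% of the 31-base words of their first transcripts occur in another gene, chiefly in one another, so the split among the 4 copies is uncertain. Dynlrb2, the counterpart of Dynlrb1 linked to motile cilia, had 7 and 8 counts, or 0.84 TPM in each animal.

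All 6 dynactin subunits were detected. Dctn1, the p150Glued subunit that binds both dynein and microtubules, stood at 150.4 TPM in replicate 1 and 143.6 in replicate 2, and 1.08 ± 0.0215 times Dync1h1. By the second quantification Dctn1 was 1.31 times Dync1h1. Dctn2, or dynamitin, stood at 119.0 and 121.5 TPM, and Dctn3, of the same shoulder, at 78.1 and 83.4 TPM. Dctn6 stood at 57.5 and 51.4 TPM, Dctn5 at 47.2 and 46.1 TPM and Dctn4 at 45.2 and 42.1 TPM. These last 3 genes encode parts of the complex's pointed end. Protein-coding transcripts held only 11.9% of Dctn6 TPM, against 57.3% by the second quantification, so its order beside Dctn5 and Dctn4 is not firm.

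Dynein-2, the retrograde motor of intraflagellar transport inside cilia, was lower. Its heavy chain Dync2h1 stood at 13.35 TPM in replicate 1 and 14.03 in replicate 2, or 9.15 ± 0.395% of the TPM of both heavy chains. Its light intermediate chain Dync2li1 stood at 9.18 and 8.93 TPM.

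Genes that adapt or regulate these motors were also widely detected. Of 38 listed adaptors and regulators, 36 (94.7%) reached 1 TPM in both animals, and their median was 46.7 TPM. The detected share was 75.4% for the members and 58.4% for all protein-coding genes. The highest were Pafah1b1 (LIS1), a dynein regulator mutated in lissencephaly, at 195 ± 0.976 TPM, and Mapk8ip1, a kinesin-1 cargo adaptor, at 158 ± 7.06 TPM. The lowest were Bicdl2, with 0 counts in both animals, and Spdl1, a dynein adaptor at kinetochores, at 0.255 ± 0.0919 TPM.

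Kinesins that act at microtubule ends were of intermediate level. Kif21a, which limits microtubule growth, stood at 52.05 TPM in replicate 1 and 51.96 in replicate 2. Kif2a, a microtubule depolymerase, stood at 50.7 and 48.7 TPM, and Kif21b at 34.1 and 31.9 TPM. Kif1bp stood at 79.8 and 79.2 TPM. Kif26b and Kif26a, kinesins regarded as lacking motor activity, averaged 4.26 ± 0.354 and 2.05 ± 0.0707 TPM.

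Kinesins of motile cilia were low, as were other genes of the motile cilium. Kif19a stood at 2.21 TPM in replicate 1 and 2.30 in replicate 2, Kif9 at 1.52 and 1.58 TPM, and Kif27 at 1.90 and 1.27 TPM. Kif6 stood at 0.55 and 0.63 TPM. Of 16 listed genes of the motile cilium, 10 reached 1 TPM in both animals, the median being 1.14 TPM, the highest being Ccdc39 at 10.9 and Rsph1 at 7.07 TPM and the lowest Dnah12 at 0.055 and Dnah3 at 0.085 TPM. Kif7, a regulator of Hedgehog signalling at the primary cilium, stood at 0.51 and 0.49 TPM. Kif12 and Kif2b had 0 counts in both animals, which allows a level of up to 0.0833 TPM in replicate 1 and 0.0744 in replicate 2 for Kif12 and 0.0695 and 0.0621 TPM for Kif2b (3 counts, counting error only). Kif28 had 3 counts in replicate 1 and 1 count in replicate 2.

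The mitotic motors had between 1 and 65.5 expected counts per library, against 531 to 57898 for the transport motors. Kif22, a chromosome-arm motor, stood at 2.21 TPM in replicate 1 and 2.50 in replicate 2. Kif23, a component of the centralspindlin complex of cytokinesis, stood at 2.09 and 1.26 TPM. The minus-end spindle motor Kifc1 stood at 1.5 and 1.47 TPM and its copy Kifc5b at 1.60 and 1.36 TPM. Of the 31-base words of Kifc1-204, 64.8% occur in another gene, chiefly Kifc5b, and the split between the copies is uncertain.

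The other 9 mitotic motors averaged under 0.5 TPM. Kif11 (Eg5), which separates spindle poles, stood at 0.48 TPM in replicate 1 and 0.51 in replicate 2, Kif18a, which aligns chromosomes, at 0.41 and 0.56 TPM, and Kif4, a motor of condensed chromosomes, at 0.52 and 0.43 TPM. Kif20b stood at 0.30 and 0.37 TPM, Kif20a at 0.36 and 0.29 TPM, and Kif15, a spindle motor, at 0.41 and 0.20 TPM. Kif14, of the midbody, had 9 and 8 counts, the depolymerase Kif2c 1 and 4 counts, and Kif18b 1 and 13 counts. Levels at these counts carry wide counting error.

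Other genes of cell division were at similarly low levels. Of 19 listed, 3 reached 1 TPM in both animals, and the median was 0.48 TPM. The highest were Incenp at 10.3 and Racgap1 at 3.72 TPM, and the lowest Bub1 at 0.07 and Cenpf at 0.18 TPM. Oligodendrocyte precursors, which can divide at this age, are in the tissue, and which cells held the mitotic RNA was not tested.

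The promoters of the mitotic motors shared a sequence that the rule did not use. The cell-cycle genes homology region (CHR), TTTGAA, is an element through which the DREAM complex represses, and the MuvB complex with its partners activates, many late cell-cycle genes. Promoter sequences of 300 bases (250 before to 50 after the start, GRCm38.p6, RefSeq) were found for 51 of the 69 members, and each was searched on both strands (TTTGAA or TTCAAA). The letters were present in 1 of 11 transport motors and in 11 of 12 mitotic motors with an entry, beside 20.2% of all 27025 genes. The exceptions were Kif1a among transport motors, in 1 of its 2 promoters, and Kif18a among mitotic motors, in which the letters were not found in this window.

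Windows of 30 bases around the occurrence nearest to the start are shown so that its surroundings can be compared, with TTTGAA or its complement in capitals, each written 5′ to 3′ on the strand of the gene.
Kif1a (chr1:93082507-93082536, minus strand): tttgacagcctcTTTGAAcattgctcctaa
Kif11 (chr19:37376351-37376380, plus strand): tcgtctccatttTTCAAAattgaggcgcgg
Kif14 (chr1:136467608-136467637, plus strand): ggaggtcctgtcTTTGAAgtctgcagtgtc
Kif15 (chr9:122951050-122951079, plus strand): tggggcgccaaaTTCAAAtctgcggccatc
Kif18b (chr11:102925104-102925133, minus strand): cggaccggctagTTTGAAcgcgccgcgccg
Kif20b (chr19:34922353-34922382, plus strand): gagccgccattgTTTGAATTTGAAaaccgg
Kif22 (chr7:127042420-127042449, minus strand): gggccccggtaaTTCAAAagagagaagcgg
Kif23 (chr9:61946780-61946809, minus strand): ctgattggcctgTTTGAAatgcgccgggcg
Kif2c (chr4:117178858-117178887, minus strand): ccaggctgctctTTCAAAcctgagtaatgc
Kif4 (chrX:100626072-100626101, plus strand): ctctgggatcaaTTTGAAacttggcggtta
Kifc1 (chr17:33890615-33890644, minus strand): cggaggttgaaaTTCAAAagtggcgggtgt
Kifc5b (chr17:26917108-26917137, plus strand): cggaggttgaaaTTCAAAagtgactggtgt
In 9 of these 11 mitotic promoters the 6 letters began within 60 bases of the annotated start. In Kif11 and Kif15 they began 19 bases before it and in Kif23 2 bases after it, while in Kif14 they began 228 bases before it. In Kif20b the element stood 2 times in tandem. The windows of Kifc1 and Kifc5b were alike over most of their length, as are the genes. The CCAAT box, CCAAT on either strand, was in 3 of 11 transport motors and in 8 of 12 mitotic motors, beside 41.1% of all genes. All 8 of those mitotic promoters also held the CHR letters. A match is a description of the letters and was not tested for binding.

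**Figure D2:**
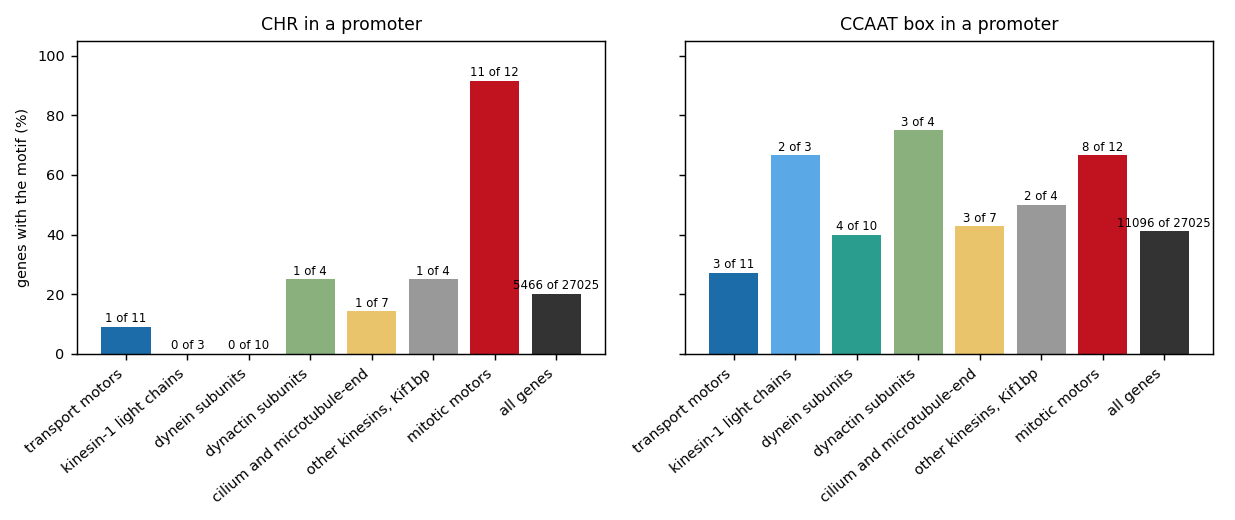
Percentage of genes whose RefSeq promoter holds TTTGAA (CHR, left) or CCAAT (right) on either strand, by class and over all genes, with the number of genes above each bar. The CHR bar of the mitotic motors stands at 11 of 12 genes, that of the transport motors at 1 of 11 and that of all genes at 5466 of 27025.

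The RNA of most members came from protein-coding transcripts. Among the 52 detected members, protein-coding transcripts held a median of 90.7% of a gene's TPM in the first transcript table, beside 90.3% over all detected protein-coding genes. For 7 members the share was under 50%, or 13.5% of them, beside 9.36% of detected protein-coding genes. These were Kif21b, Dctn6, Dynll1, Dynlt1a, Dynlt1c, Kif22 and Kif23. Of these, 4 were at 50% or more by the second table, Kif22 at 93.5%, Dynll1 at 57.9%, Dctn6 at 57.3% and Dynlt1a at 50.1%. In the other direction Kifc5b went from 54.8% to 45.05%. For these genes the call rests on the table. Large falls without a change of call included Dctn5 from 81.7% to 50.03% and Kif1bp from 87.5% to 54.8%. Kifc2 fell from 91.2% to 59.1% and Dynlrb1 from 97.2% to 62.6%, while Dync1li2 rose from 68.9% to 91.5%. Shares at 50% or more are therefore not all firm. The replicates differed for Kif22, at 67.1% in replicate 1 and 31.2% in replicate 2. Dctn6 had 59.2% of its TPM on Dctn6-210 and 20.99% on Dctn6-209, both annotated as retained introns, but the second table gave those 32.0% and 0.846%. Dynll1 had 47.5% on Dynll1-203, annotated as a processed transcript, and 37.7% on the coding Dynll1-202, against 41.2% and 56.4% in the second table, which turns the order.

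Kif21b, a motor that also pauses microtubule growth, was the only detected member with most TPM on a transcript annotated as a target of nonsense-mediated decay, the pathway that degrades messages with an early stop. That transcript, Kif21b-204, held 61.9% of the gene's TPM in replicate 1 and 59.95% in replicate 2, against 24.3% and 27.5% for the coding Kif21b-201. In the second table Kif21b-204 held 65.1% and 60.8%. The animals and both tables gave the same order. Kif21b-204 has an extra exon, exon 35 of 36, 180 bases at chr1:136173472-136173651 on the plus strand of mm10, with a stop codon at 136173569 to 136173571 and 80 bases of the exon after it. It encodes 1639 residues and Kif21b-201 encodes 1624, so the annotated products differ at the end. The first 100 bases of the exon are shown because they hold the stop, in capitals.
Kif21b-204 exon 35: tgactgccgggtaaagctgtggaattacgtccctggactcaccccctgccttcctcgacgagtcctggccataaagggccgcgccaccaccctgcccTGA
The decay label is the annotation's, and whether this RNA is degraded was not tested.

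Of 37 members at 10 TPM or more, 10 had 1 transcript with at least 90% of the TPM and 15 had a second transcript with at least 20%. The leading transcript was the same in both transcript tables for 27 of the 37. The matching shares over all genes at that level were not computed, so these counts are not read as a trait of the motors. Kif1b has a short form, known for carrying mitochondria, and a long form known for synaptic vesicle precursors. The long Kif1b-203, of 1816 residues, held 81.3% of Kif1b TPM, and the short Kif1b-201, of 1150 residues, held 2.29%, against 63.5% and 1.77% in the second table. Klc1, whose forms differ in their cargo-binding ends, had 56.6% on Klc1-202 (542 residues), 19.98% on Klc1-203 (560 residues) and 6.96% on Klc1-201 (616 residues), against 47.5%, 31.3% and 14.1% in the second table.

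Several of the 15 genes split between coding transcripts. For the first 3 given here, the tables put a different transcript of the pair first. Kif3c had 49.4% on Kif3c-201 and 45.6% on Kif3c-205, both encoding 796 residues, against 37.2% and 58.3% in the second table. Dync2h1 had 32.3% on Dync2h1-204 and 32.1% on Dync2h1-206, against 22.1% and 44.4%. Dync1i2 had 49.1% on Dync1i2-208 and 28.5% on Dync1i2-207, against 28.9% and 41.3%. The order was the same in both tables for the next 3 genes. Kif17 had 33.4% on Kif17-202 and 27.5% on Kif17-204, against 29.1% and 20.6% in the second table. Dctn1 had 42.8% on Dctn1-203 and 21.7% on Dctn1-202, which lacks the first 5 exons of Dctn1-203 and encodes 1142 rather than 1264 residues, against 29.7% and 20.2%. Dctn4 had 56.3% on Dctn4-201 and 27.4% on Dctn4-204, against 49.0% and 35.4%.

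In another 4 genes the second transcript had a far smaller share in the second table. Klc2 had 42.5% on Klc2-204 and 42.0% on Klc2-201 in the first of the tables, but 90.8% and 0.009% in the second. Dynll2 had 76.7% on Dynll2-201 and 21.6% on Dynll2-204, against 98.4% and 0 in the second table. Dync1li2 had 52.4% on Dync1li2-201 and 24.0% on the noncoding Dync1li2-208, against 70.3% and 0. Kif2a had 30.6% on Kif2a-206 and 29.5% on the incomplete Kif2a-205, against 10.8% and 0. In the second table most Kif2a TPM therefore lay on transcripts not named here. The tables were closer for the last pair of genes. Kif13b had 48.0% on Kif13b-203 and 28.7% on the incomplete Kif13b-202, close to the second table's 45.1% and 22.0%. Dynlt1f had 75.4% on Dynlt1f-201 and 24.6% on Dynlt1f-202, close to 73.1% and 26.9%.

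Very short exons, or microexons, are spliced in mainly in neurons and add a few residues to a protein. Among the 37 members at 10 TPM or more, 12 genes had 22 internal exons of 30 bases or fewer in transcripts with a coding region. Of these, 10 exons in 8 genes were held by over 5% and under 95% of the TPM of the coding transcripts that span them, and the length of all 10 was a multiple of 3, which keeps the reading frame, beside 20 of all 22. Another 7 were held by 95% or more and 5 by 5% or less. The variable exons, except that of Dctn4, and 3 matching ones of Kif1a and Kif1b are shown in capitals, between 12 bases of the exons on either side in transcripts that hold them, 5′ to 3′ on the gene's strand, because the inserted letters are what the transcripts differ by (mm10, GENCODE M21 transcripts).
Dctn1, 18 bases (chr6:83186428-83186445, plus strand): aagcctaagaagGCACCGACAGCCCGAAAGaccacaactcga
Dctn1, 15 bases (chr6:83197319-83197333, plus strand): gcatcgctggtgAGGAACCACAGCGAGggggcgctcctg
Dync1i2, 18 bases (chr2:71227827-71227844, plus strand): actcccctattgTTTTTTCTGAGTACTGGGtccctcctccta
Dync2h1, 21 bases (chr9:7045349-7045369, minus strand): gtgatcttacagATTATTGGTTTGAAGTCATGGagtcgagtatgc
Kif1a, 24 bases (chr1:93026832-93026855, minus strand): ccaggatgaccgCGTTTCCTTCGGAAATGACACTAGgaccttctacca
Kif1a, 27 bases (chr1:93065552-93065578, minus strand): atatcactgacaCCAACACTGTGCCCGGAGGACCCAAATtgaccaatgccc
Kif1b, 18 bases (chr4:149265345-149265362, minus strand): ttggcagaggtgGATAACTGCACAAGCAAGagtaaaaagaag
Kif21a, 21 bases (chr15:90964975-90964995, minus strand): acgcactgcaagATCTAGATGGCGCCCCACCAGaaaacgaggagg
Kif3a, 9 bases (chr11:53590717-53590725, plus strand): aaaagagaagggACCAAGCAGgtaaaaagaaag
Kif1a, 18 bases (chr1:93072308-93072325, minus strand): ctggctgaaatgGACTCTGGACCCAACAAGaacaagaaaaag
Kif1a, 27 bases (chr1:93034546-93034572, minus strand): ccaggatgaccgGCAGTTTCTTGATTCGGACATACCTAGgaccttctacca
Kif1b, 27 bases (chr4:149195473-149195499, minus strand): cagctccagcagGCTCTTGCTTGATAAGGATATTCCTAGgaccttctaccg
The 18-base exon of Kif1b was held by 93.9% in replicate 1 and 92.3% in replicate 2. The 21-base exon of Kif21a was held by 88.7% and 88.3%, and the 9-base exon of Kif3a by 82.0% and 84.9%. In Kif1a the 24-base exon was held by 78.4% and 78.2% and the 27-base exon at chr1:93065552-93065578 by 18.5% and 18.7%. In each of these the animals were within 3 percentage points.

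In Dctn1 an 18-base exon was held by 71.6% in replicate 1 and 75.1% in replicate 2, and a 15-base exon by 69.4% and 75.2%. The 18-base exon lies between a pair of 21-base exons that were held by 96.7% and 97.5% on average. In Dync1i2 an 18-base exon was held by 57.2% and 58.8%, in Dync2h1 a 21-base exon by 43.6% and 54.9%, and in Dctn4 a 21-base exon by 30.6% and 34.8%. For Kif21a, Dync1i2 and Dync2h1 the tables were more than 10 points apart, with second-table means of 59.8%, 36.0% and 65.0%. These shares come from transcript estimates, not from reads counted across junctions.

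**Figure D3:**
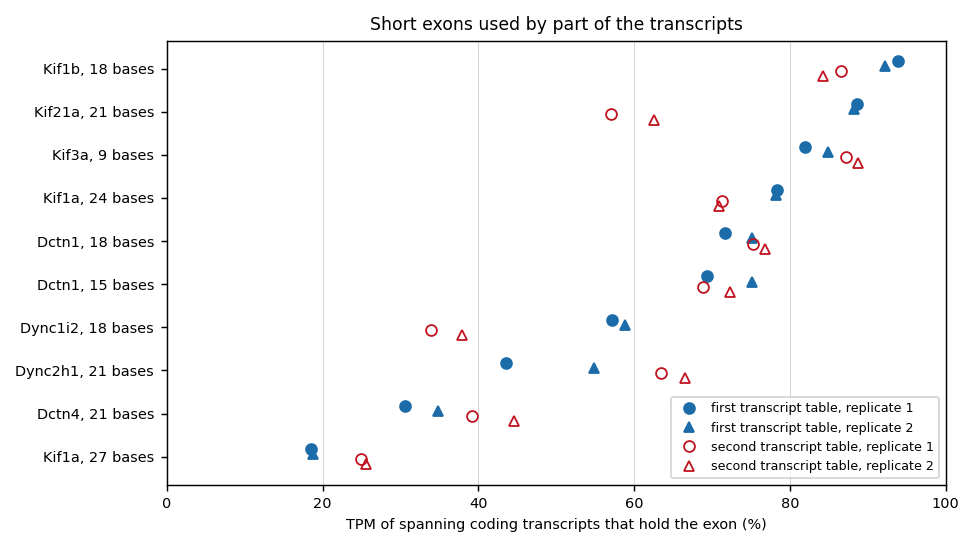
Share of the TPM of spanning coding transcripts held by transcripts with each of the 10 short exons, in percent; filled symbols are the first transcript table and open symbols the second, circles replicate 1 and triangles replicate 2. Replicates lie closer together than tables for Kif21a and Dync1i2.

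Kif1a and Kif1b carry matching short exons. Their 27-base exons shown last in the set were identical at 20 of 27 positions and were used little, by 3.11 ± 0.041% in Kif1a and 0.476 ± 0.43% in Kif1b. In Kif1a the 24-base exon stood between the same flanking letters in place of this 27-base exon. Each was in 1 of the 5 spanning coding transcripts, and the other 3 held neither. Their 18-base exons were identical at 9 of 18 positions, and the Kif1a copy was in all 5 spanning coding transcripts, while the Kif1b copy is the variable one above.

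The deposited quantifications differed in absolute level. Over protein-coding genes at 1 TPM or more in either, gene table TPM lay below second-table TPM, with a median log2 ratio of -0.63, and for the 57 such members it was -0.61. Relative to that median, 2 members, Kif24 and Kif2c, differed over 2-fold, or 3.51%, beside 2.89% of all such genes. Kif24, which controls cilium growth at centrioles, averaged 0.50 TPM in the gene table and 17.6 TPM in the second. The difference lay in Kif24-204, a noncoding transcript with 18.8 TPM in replicate 1 and 15.4 in replicate 2 in the second table, from 235 and 214 estimated counts, against 7 and 2.14 expected counts in the first. Of its 31-base words, 42.8% occur in transcripts of other genes on the same strand and 47.3% on the opposite strand, over 101 genes. Kif2c averaged 0.04 TPM and 3.15 TPM, from 10.6 and 17.7 estimated counts on the retained-intron transcript Kif2c-203 in replicates 1 and 2. Neither gene's level is firm.

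**Figure D4:**
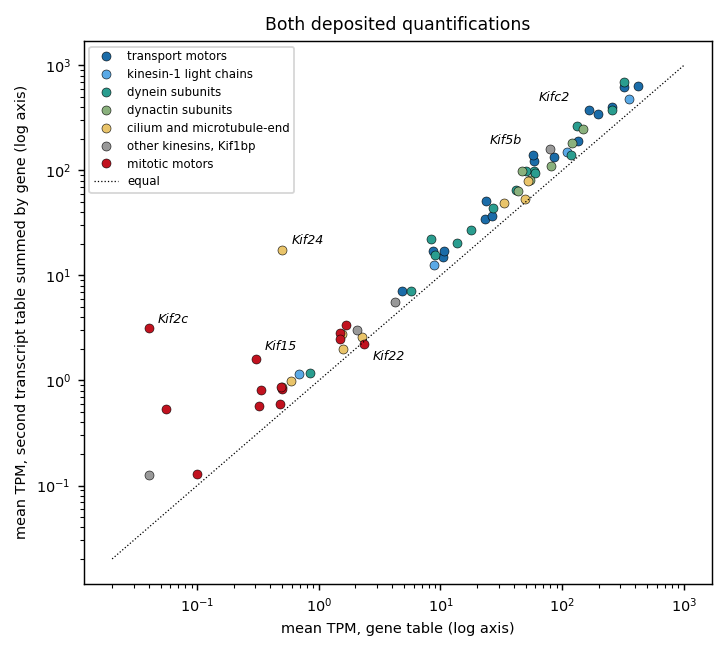
Mean TPM over both animals in the gene table (horizontal) and in the second transcript table summed by gene (vertical), both on log axes, with each member coloured by class and a dotted line of equality; genes at 0 in either are not drawn. Kif24 stands at 0.50 TPM in the gene table and 17.6 TPM in the second, away from the band of the other members.

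The animals were close. Among the 62 members that averaged 10 or more expected counts, none was over 1.5-fold apart (log2 of TPM + 0.5, replicate 1 over replicate 2, which understates changes of low genes), beside 3.75% of 18136 genes. The 3 furthest apart were Kif23, Kif27 and Kif15. Their differences were 0.56, 0.44 and 0.38 on the log2 scale, all higher in replicate 1, and their counts of 44 and 34, 115 and 123, and 14 and 9 in replicates 1 and 2 gave counting intervals that include 0. On TMM-scaled counts the difference of Kif27 was 0.02. Among the 33 members with 1000 counts or more the median absolute difference was 0.06, beside 0.07 for all 5627 genes at that count. For some of these members the counting interval of TMM-scaled counts excluded 0. Examples are Kif1b at 0.061 to 0.103 and, in the other direction, Klc1 at -0.097 to -0.031. Kif18b, under the count minimum, had 1 and 13 counts, with a 95% exact interval of -8.99 to -0.84 for the log2 ratio of TMM-scaled counts, which covers counting error only.

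The direction of the small differences depended on the scaling. By TPM, 42 of the 62 members and all 16 transport motors were higher in replicate 1, beside 57.8% of all genes. The transport motors' median difference was 0.07, and the largest were Kif13a and Kif13b at 0.23 each. By TMM-scaled counts 13 of the 16 were higher in replicate 1 with a median of 0.01, 10 of 16 were by the second table, and by spike-in scaling, which moved the median of all genes to -0.14, none was, with a median of -0.14. No direction is therefore given for the class. Beside this, all 12 mature oligodendrocyte markers were lower in replicate 1 (summed level 977 TPM in replicate 1 and 1300 in replicate 2), as were all 8 choroid plexus markers (142 and 335 TPM), under every scaling tried. Of 10 neuron markers 9 were higher in replicate 1 by TPM (summed level 5041 and 4838 TPM) and 4 by TMM-scaled counts. Their part in the members' differences was not tested.

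**Figure D5:**
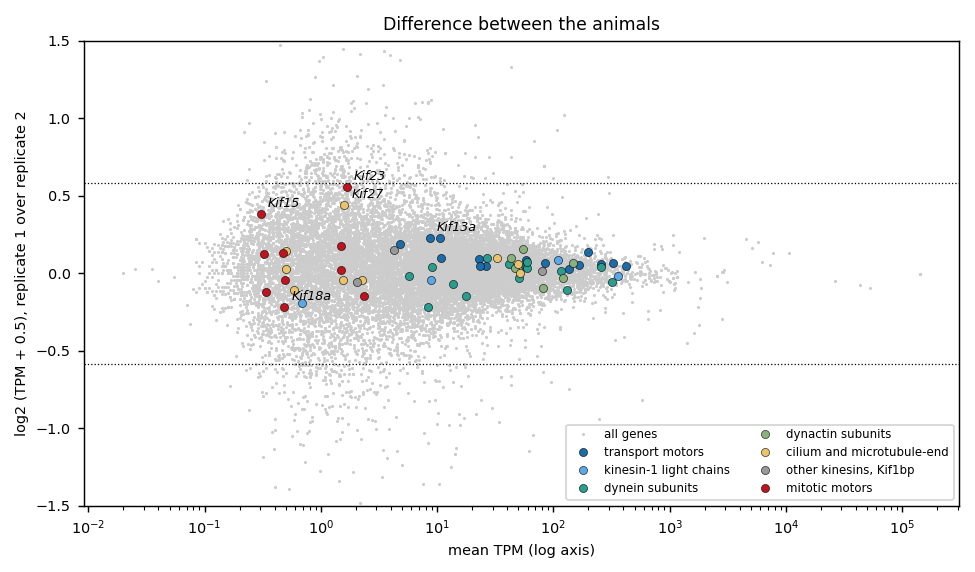
log2 difference of TPM + 0.5, replicate 1 over replicate 2, against mean TPM on a log axis, for members with a mean count of at least 10 coloured by class and all genes in grey; dotted lines mark 1.5-fold, and 50 genes lie outside the plotted range of differences. All 62 members lie between the lines.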

How the data were processed

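Per the deposited file list, all tables used mm10 and GENCODE M21. Expected counts and TPM per gene and, in the first transcript table, per transcript were deposited with RSEM-style column names, per the file headers. Estimated counts and TPM of the second transcript table were deposited with kallisto-style column names, per the file headers. The authors' programs were, like their versions, not given in the sources used here. Deposited TPM covers all rows, spike-ins included. The 26248 numbered rows that name no gene, with 7 and 10 counts (2.3e-05% and 3e-05%) in replicates 1 and 2, were left out. A gene counted as detected at 1 TPM in both animals. Differences between animals are log2 of TPM + 0.5, for a mean count of at least 10. Counts were rounded for TMM scaling (edgeR 4.0.16) and size factors (DESeq2 1.42.0), which served for scaling only, and exact binomial 95% intervals cover counting error only. Reads here carry no molecular identifiers, so several may stem from 1 molecule. Scripts were run in Python 3.11.15 and R 4.3.3, with the difference between animals tested on simulated counts.

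The members, their roles and the lists of adaptors, cell division, motile cilium and cell type markers were chosen with earlier results of these data known. Named were all transport and mitotic motors, dynein-1 and dynactin subunits, other members at 1 TPM or more, and for transcripts the largest pair of each member at 10 TPM or more whose second held 20%. Members of other classes under 1 TPM were named after their values were seen. Motifs, short exons and Kif21b were chosen after the values were seen. Alternatives tried are the second table, posterior mean TPM, protein-coding transcripts only, single replicates, other class limits, scalings, pseudocounts and thresholds. Of the 18 listed motile cilium symbols, 16 matched.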

Additional observations from a re-analysis of the deposited data

How the results depend on the processing

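The transport median stayed far above the mitotic median under every alternative tried. The log2 ratio of the medians, 6.93, was 7.23 by the second transcript table, 5.72 by posterior mean TPM, 7.36 on protein-coding transcripts only, 7.16 without Kifc5b, 7.53 by TMM-scaled counts (CPM) with no length scaling, and 7.04 to 7.18 with 1 replicate left out. The transport median of 57.9 TPM was 129 by the second table, 53.3 on protein-coding transcripts only, 54.5 with light chains, dynein and dynactin subunits added, and 153 CPM. The mitotic median of 0.475 TPM was 0.859 by the second table, 1.09 by posterior mean TPM, 0.325 on protein-coding transcripts only, 0.405 without Kifc5b, 0.83 CPM, and 0.41 to 0.43 with 1 replicate left out. Members over 1.5-fold apart between animals numbered 0, but 1 (Kif20b) by the second table, 3 (Dctn6, Dynlt1c, Kif22) on protein-coding transcripts only, 2 (Kif15, Kif23) with a pseudocount of 0.1, and 3 (Kif15, Kif23, Kif27) at the lower fold limit. The Kif5a share, 57.3%, was 53.8% by the second table, 57.0% by posterior mean TPM and 58.0% on protein-coding transcripts only. The light over heavy chain ratio, 0.647, was 0.547 by the second table and 0.590 on protein-coding transcripts only. The dynein-1 intermediate over heavy chain ratio, 0.875, was 1.02 by the second table, and so passed 1. By the same table the light intermediate over heavy chain ratio, 1.17, was 1.08. Kinesin-1 heavy chains over Dync1h1, 5.42, came to 6.19, and Kif1a over Kif1b, 1.63, to 1.79. The median protein-coding share, 90.7%, was 91.6% by the second table and 90.4% to 91.5% with 1 replicate left out. In these cases the cause was not tested. Detected members, 52 of 69, ranged in the 7 alternatives from 42 with detection at 5 TPM to 57 by posterior mean TPM. Mitotic motors with a CHR numbered 9 of 12 in the last 150 bases of the promoter, beside 9.23% of all genes. That window was chosen after seeing the data. No paired analysis was possible because there was 1 group. Depth limits the mitotic motors, which had at most 65.5 counts.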
